A study of Mus musculus with 8 samples.

Results

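The RNAs described here are BC1 and a set of abundant noncoding RNAs that work as folded structures rather than as messages, measured in mouse tumors with and without Argonaute 2 (Ago2) in the cancer cells. Bc1 was chosen by its fall from wild-type to knock-out tumors in these same libraries, so its difference between genotypes is given as a description with no test. The other 8 RNAs, Rn7sk, Rmrp, Rpph1, Rn7s1, Rn7s2, Terc, Malat1 and Neat1, were chosen for what they are. The 9 symbols correspond to 10 rows of the 55487 genes in the count table, because Rmrp has 2 gene identifiers.

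The libraries came from whole tumors of the mouse lung cancer line LLC (Lewis lung carcinoma), implanted subcutaneously in syngeneic C57BL/6J mice, which the methods give as young adult females, and collected at day 12. Of the 8 tumors, 4 grew from wild-type LLC cells and 4 from LLC cells labelled Ago2 knock-out (ΔAgo2). No other treatment or allele is given for either group, and all libraries carry the batch label 1. The knock-out was made by infection with a lentivirus carrying a CRISPR guide, cells were then cloned, and the study names 1 clone for engraftment, so the genotype and the clone cannot be told apart. Whole tumors were lysed, so host cells, which keep Ago2, contribute to every library.

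BC1 is a short RNA of rodents that RNA polymerase III makes from a gene derived from a transfer RNA, best known from neurons and male germ cells, where it binds poly(A)-binding protein and translation initiation factors and dampens translation. RNA polymerase III also makes 7SK RNA (Rn7sk), which holds the elongation kinase P-TEFb inactive, the RNAs of RNase MRP and RNase P (Rmrp and Rpph1), and 7SL RNA, the core of the signal recognition particle (Rn7s1 and Rn7s2). Telomerase RNA (Terc), Malat1 of nuclear speckles and Neat1 of paraspeckles are made by RNA polymerase II. Most of these RNAs lack a poly(A) tail, whereas the libraries were made with a kit for messenger RNA, which captures RNA through adenine stretches.

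The sequences of the counted RNAs differ in the length of the adenine runs within their annotated transcripts. They are shown 5′ to 3′ as DNA letters from the GENCODE M21 transcripts, with runs of at least 5 A in capitals. Bc1 (ENSMUSG00000115783.1, annotated as a long intergenic noncoding RNA) is shown whole, at chr7:144914470-144914637 on the plus strand of GRCm38. Rn7sk (ENSMUSG00000065037.1) is shown for its first 300 bases, at chr9:78175334-78175633 on the minus strand. Malat1 (ENSMUSG00000092341.3) is shown around its longest A run, at chr19:5795928-5796059 on the minus strand.
Bc1: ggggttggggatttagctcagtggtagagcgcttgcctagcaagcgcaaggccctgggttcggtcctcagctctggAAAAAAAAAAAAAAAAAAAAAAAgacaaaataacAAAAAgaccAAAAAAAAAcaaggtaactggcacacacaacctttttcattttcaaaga
Rn7sk: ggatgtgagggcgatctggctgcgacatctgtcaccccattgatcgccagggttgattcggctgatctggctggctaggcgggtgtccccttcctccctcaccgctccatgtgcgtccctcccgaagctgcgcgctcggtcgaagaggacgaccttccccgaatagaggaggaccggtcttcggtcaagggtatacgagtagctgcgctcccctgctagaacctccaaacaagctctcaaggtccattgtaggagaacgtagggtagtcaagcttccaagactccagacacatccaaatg
Malat1: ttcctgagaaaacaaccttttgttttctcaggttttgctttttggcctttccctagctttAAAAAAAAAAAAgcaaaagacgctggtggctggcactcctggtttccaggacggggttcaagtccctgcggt

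The Bc1 transcript of 168 bases holds 3 such runs, the longest of 23 A starting at base 77. Runs of at least 23 A occurred in the transcripts of 0.687% of 55450 annotated genes. The longest run of Rn7sk, a transcript of 331 bases, was 3 A. Among the longer RNAs it was 12 A in Malat1, starting at base 6674 of 6983, and 7 A in Neat1, a transcript of 20771 bases. Rmrp, Rpph1, Rn7s1, Rn7s2 and Terc have longest runs of 2 to 5 A. GC content was 40.5% in Bc1 and 58.0% in Rn7sk. How such runs act on capture was not tested.

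Library depth matters for every value below. Totals ran from 7903288 gene counts in wild-type tumor 4 to 268564145 in ΔAgo2 tumor 4, a 34.0-fold range. Counts were scaled to a common library size (CPM) with trimmed mean of M-values (TMM) factors, and 3 counts, the limit that a count of 0 allows, correspond to 0.38 CPM in the shallowest and 0.0112 CPM in the deepest library. These limits, and the counting errors below, cover counting error only. Ago2 mRNA itself averaged 153.6 ± 28.9 CPM in wild-type and 239.4 ± 99.1 CPM in ΔAgo2 tumors (SD, n = 4), and the groups overlapped. Counts over a whole gene do not show a small change made by a guide, and host cells add transcript, so this level does not check the labels.

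Bc1 was lower in ΔAgo2 tumors, with levels that differed most among the wild-type tumors themselves. Across wild-type tumors 1 to 4 its level was 134.4, 925.3, 141.4 and 3259 CPM. In ΔAgo2 tumors 1 to 4 it was 89.08, 28.03, 67.63 and 37.77 CPM. All 4 ΔAgo2 tumors lay below all 4 wild-type tumors, and the lowest wild-type tumor was 1.51-fold above the highest ΔAgo2 tumor. Wild-type tumors 2 and 4 stood far above tumors 1 and 3, giving a 24.2-fold range within the wild-type group against 3.18-fold within the ΔAgo2 group. Such an order, with every ΔAgo2 value below every wild-type value, was seen in 8.36% of the 16061 genes tested. Since Bc1 was chosen by this contrast, nothing is read from its place among them.

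The group means of Bc1 were 1115 ± 1477 CPM in wild-type and 55.63 ± 27.9 CPM in ΔAgo2 tumors (SD, n = 4), a ratio of 20.0, whereas the medians of 533.4 and 52.7 CPM gave a ratio of 10.1. The fit gave a log2 fold change of −4.33 (standard error 0.98). Of the 16061 genes tested, 8 were at or below it, Bc1 itself included, which is a description only. Wild-type tumors 1 and 3 alone averaged 137.9 CPM, 2.48 times the ΔAgo2 mean. Without wild-type tumors 2 and 4 the fit gave −1.29 (standard error 0.44). Both tumors were left out after their levels were seen.

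Counting error was small beside these differences. The wild-type libraries of tumors 1 to 4 held 7177, 19420, 6730 and 22748 Bc1 counts, and the ΔAgo2 libraries 4344, 3197, 2267 and 10795. The relative counting error was thus 0.663% to 2.1% per library. Wild-type tumor 4 had the fewest total counts and the most Bc1 counts of all libraries. Wild-type tumor 2 came next in both, with 20683668 total counts, followed in total by ΔAgo2 tumor 3 with 31846706. Bc1 took 0.288% of all counts there and 0.00301% in ΔAgo2 tumor 2, the highest and lowest shares. After all libraries were thinned to the depth of the shallowest, the log2 fold change was −4.36. Thinning evens out counting depth only. Why the libraries with the lowest totals had the highest Bc1 levels was not tested.

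**Figure D1:**
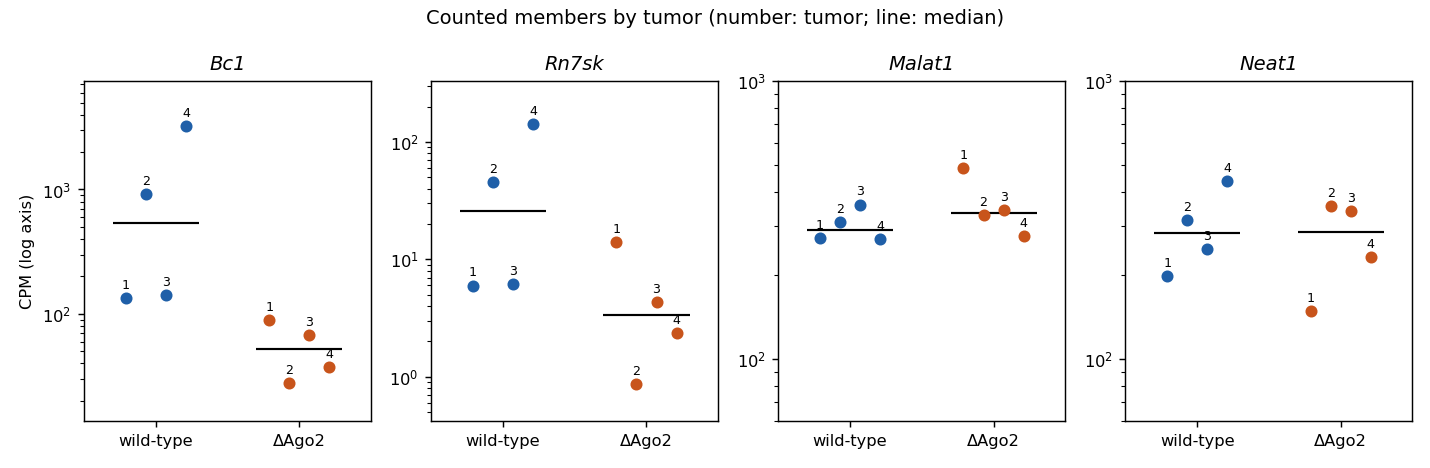
CPM of Bc1, Rn7sk, Malat1 and Neat1 in each tumor on log axes, with wild-type tumors in blue, ΔAgo2 tumors in orange, the tumor number above each point and the group median as a line. Bc1 and Rn7sk were highest in wild-type tumors 2 and 4, and only the groups of Bc1 do not overlap.

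Per length, Bc1 was among the most abundant transcripts. On the TPM scale, which divides counts by gene length, the wild-type levels were 2283, 15695, 2426 and 39115 TPM for tumors 1 to 4. The ΔAgo2 levels were 1164, 611.5, 1270 and 764.8 TPM. Its rank among all genes was 2 in wild-type tumor 4 and 210 in ΔAgo2 tumor 2. In each of the 8 libraries Bc1 had the highest TPM level of the 9 RNAs. Malat1 averaged 116.1 ± 29.7 TPM in wild-type and 154.0 ± 15.4 TPM in ΔAgo2 tumors, and Neat1 36.93 ± 7.53 and 42.11 ± 20.3 TPM (SD, n = 4). Rn7sk averaged 341.8 ± 386 TPM in wild-type tumors, where it was above Malat1 in tumors 2 and 4 and below it in tumors 1 and 3. In the ΔAgo2 tumors Rn7sk averaged 42.19 ± 36.6 TPM and did not separate from Neat1.

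No other annotated gene overlaps Bc1, and its nearest neighbour on the same strand, LTO1, lies 462 bases away. LTO1, a protein-coding gene, averaged 13.05 ± 1.92 CPM in wild-type and 12.97 ± 0.914 CPM in ΔAgo2 tumors (SD, n = 4, edgeR adjusted p = 0.994). No other annotated transcript matched Bc1 at 90% identity over 80% of its length, although 61 genes held a shorter or weaker match. How reads that match several places were counted is not given in the sources used here.

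Rn7sk was the member whose levels were ordered most like those of Bc1. Across wild-type tumors 1 to 4 it was at 5.993, 45.55, 6.198 and 142.7 CPM. In ΔAgo2 tumors 1 to 4 it was 14.11, 0.868, 4.326 and 2.372 CPM. Wild-type tumors 2 and 4 were again highest, but ΔAgo2 tumor 1 lay above wild-type tumors 1 and 3, so the groups overlapped. The log2 fold change of −3.20 (standard error 1.10) did not pass the edgeR quasi-likelihood test (adjusted p = 0.11, unadjusted p = 0.0142). Rn7sk passed with DESeq2 (adjusted p = 0.0484), with voom (adjusted p = 0.0418) and without a count filter (adjusted p = 0.0433, where 3.24% of all genes passed). Without wild-type tumors 2 and 4 its log2 fold change was −0.14 (adjusted p = 0.967). Counts of Rn7sk ran from 99 to 996, a counting error of 3.17% to 10.1% per library. C920006O11Rik, 280 bases away on the opposite strand, averaged 1.235 ± 0.345 CPM in wild-type and 1.269 ± 0.219 CPM in ΔAgo2 tumors (SD, n = 4).

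The ratio of both RNAs was nearly fixed in wild-type tumors. Bc1 counts per Rn7sk count were 22.4, 20.3, 22.8 and 22.8 in wild-type tumors 1 to 4, while the CPM levels spanned 24.2-fold for Bc1 and 23.8-fold for Rn7sk. In ΔAgo2 tumors 1 to 4 the ratios were 6.31, 32.3, 15.6 and 15.9. The wild-type ratios of 22.1 ± 1.2 thus lay inside the wider ΔAgo2 range of 17.5 ± 10.8 (SD, n = 4), and the mean log2 ratio differed by −0.56. The 3 lower ΔAgo2 ratios lay below all wild-type ratios and that of ΔAgo2 tumor 2, with 99 Rn7sk counts, above them. Since Bc1 enters each ratio, no test was made.

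**Figure D2:**
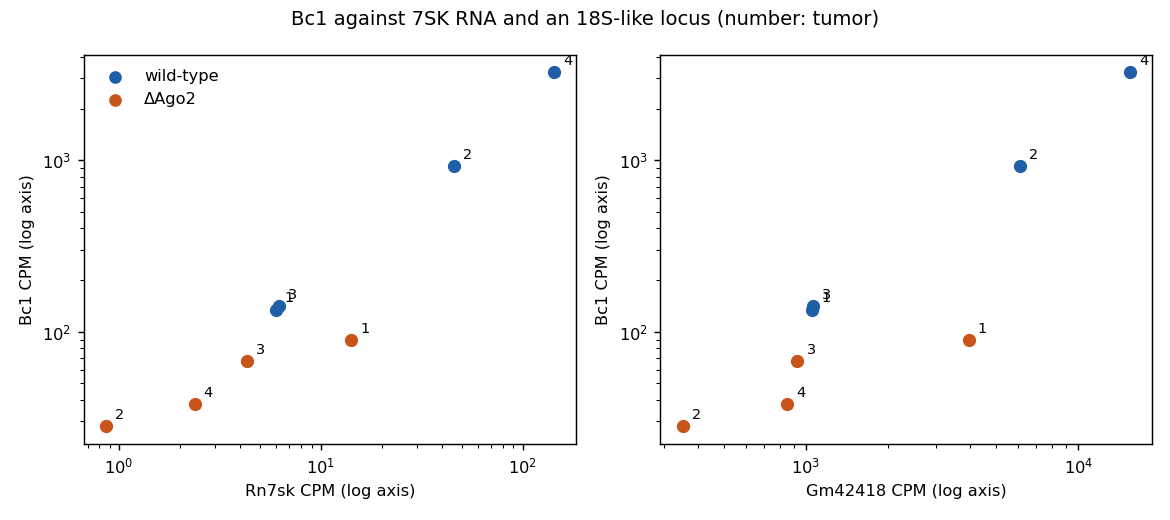
Bc1 CPM in each tumor against Rn7sk CPM (left) and Gm42418 CPM (right) on log axes, with wild-type tumors in blue, ΔAgo2 tumors in orange and the tumor number beside each point. In both panels Bc1 is highest where the other RNA is highest among wild-type tumors, and ΔAgo2 tumor 1, at 14.11 CPM of Rn7sk and 3953 CPM of Gm42418, has less Bc1 than wild-type tumors 1 and 3.

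Malat1 and Neat1, the longest and most deeply counted of these RNAs, did not share that order over both groups of tumors. For Malat1 the wild-type levels were 271.8, 311.0, 359.8 and 270.5 CPM, in tumors 1 to 4. The ΔAgo2 levels were 486.8, 329.2, 343.5 and 277.1 CPM. The highest Malat1 level was in ΔAgo2 tumor 1, the groups overlapped, and the log2 fold change of 0.24 with a standard error of 0.22 did not pass the edgeR test (adjusted p = 0.486). Under a correction for gene GC content it was −0.34 (adjusted p = 0.537).

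For Neat1 the wild-type levels were 199.1, 317.3, 248.9 and 435.8 CPM, in tumors 1 to 4. The ΔAgo2 levels were 148.6, 356.1, 341.7 and 232.1 CPM. Among wild-type tumors this was the order of Bc1 and Rn7sk, over a 2.19-fold range, but the order in ΔAgo2 tumors differed from theirs. The highest value was in wild-type tumor 4 and the lowest in ΔAgo2 tumor 1, and the groups overlapped. The log2 fold change of −0.15 with a standard error of 0.32 did not pass (edgeR adjusted p = 0.779), and without wild-type tumor 4 it was 0.08 (adjusted p = 0.912). Short annotated genes lie within both loci on the same strand, and Malat1 shares 453 bases with a gene on the opposite strand, Gm37376.

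Bc1 was also counted against the other 8 RNAs together, which are nearly all Malat1 and Neat1. The wild-type ratios for tumors 1 to 4 were 0.282, 1.37, 0.23 and 3.84 Bc1 counts per count of those RNAs. The ΔAgo2 ratios were 0.137, 0.0409, 0.0981 and 0.0738. The groups did not overlap, and the mean log2 ratio differed by −3.26. Malat1 and Neat1 CPM spanned at most 2.4-fold within a group, so this ratio largely repeats the level by which Bc1 was chosen. It is a description and gives no separate support.

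The remaining 5 symbols were at or near 0 and could not be tested. Both Rmrp identifiers and Terc had 0 counts in all 8 libraries. Rpph1 had 1 count in all, in wild-type tumor 4, and so had Rn7s2. Rn7s1 had 6 counts, of which 4 were in wild-type tumor 2. The deepest library allows a level of up to 0.0112 CPM, before TMM scaling, for each RNA listed at 0 there. The annotation limits these rows: the 2 Rmrp identifiers share 271 bases on 1 strand, Rpph1 shares 284 bases with Ccnb1ip1, and Rn7s1 and Rn7s2 are identical over all 300 bases. How reads shared by such rows were counted is not given in the sources used here, so a row at 0 does not show that the RNA was absent.

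Of the 3 other members that could be tested, Rn7sk, Malat1 and Neat1, 0 passed the edgeR test, where 3.49% of the 16061 genes tested passed. At an unadjusted p under 0.05 the count was 1 of 3, where 26.7% of all genes had such a p. With DESeq2 and with voom it was 1 of 3, Rn7sk, where 14.3% and 27.9% of all genes passed. With 3 genes such shares cannot be set apart from the background.

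Ribosomal RNA remnants, like Bc1, were highest in wild-type tumors 4 and 2, while tumors 1 and 3 were nearly equal. Gm42418, which RefSeq lists as the 18S-related locus Rn18s-rs5 on chromosome 17, and Gm26917 beside it took 0.133%, 0.731%, 0.132% and 1.64% of counts in wild-type tumors 1 to 4. In ΔAgo2 tumors 1 to 4 they took 0.417%, 0.0445%, 0.12% and 0.105%. The next highest share was in ΔAgo2 tumor 1, and the difference of the means did not pass the exact two-sided permutation test (p = 0.171, where 70 assignments allow no p below 0.0286). AY036118, a further locus of this kind, had 0 counts. CT010467.1, of the annotated type rRNA, was at 106.4 CPM in wild-type tumor 4 and 0.228 CPM in ΔAgo2 tumor 2, its highest and lowest levels. The mitochondrial mt-Rnr1 and mt-Rnr2 were ordered otherwise, with 0.0494% ± 0.016 of counts in wild-type and 0.0435% ± 0.0182 in ΔAgo2 tumors (SD, n = 4, exact permutation p = 0.543).

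Read against these ribosomal remnants, Bc1 differed less between genotypes, but the groups stayed apart. Bc1 counts per count of Gm42418 and Gm26917 were 0.102, 0.128, 0.108 and 0.176 in wild-type tumors 1 to 4. In ΔAgo2 tumors 1 to 4 they were 0.0194, 0.0676, 0.0595 and 0.0384. All wild-type ratios lay above all ΔAgo2 ratios, with means of 0.129 ± 0.0334 and 0.0462 ± 0.0217 (SD, n = 4), a 2.78-fold ratio. With the Gm42418 level as a covariate in the fit, Bc1 had a log2 fold change of −1.65 (standard error 0.48), and that of Rn7sk was −0.83 (adjusted p = 0.0897). Rn7sk counts per 1000 remnant counts were 4.56, 6.32, 4.74 and 7.70 in wild-type and 3.07, 2.09, 3.80 and 2.41 in ΔAgo2 tumors, and these groups did not overlap either. Both readings were added after the remnant levels were seen.

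**Figure D3:**
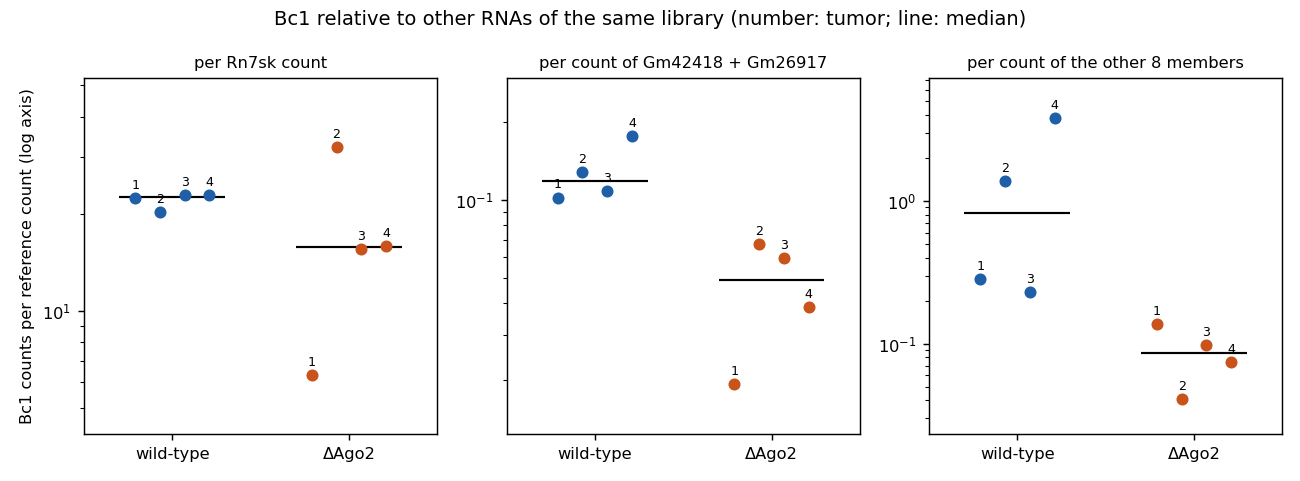
Bc1 counts per count of Rn7sk, of Gm42418 plus Gm26917 and of the other 8 members in each tumor, on log axes with the group median as a line and the tumor number above each point. The genotypes overlap per Rn7sk count, where wild-type tumors sit between 20.3 and 22.8, and do not overlap for the other 2 references.

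Other short structured RNAs, summed, also took their highest shares in wild-type tumors 2 and 4, over a narrower range than Bc1, although single RNAs spanned more. Small nuclear, small nucleolar and Cajal body RNAs, ribozymes and miscellaneous RNAs without the members took 0.003%, 0.00779%, 0.0033% and 0.0136% of counts in wild-type tumors 1 to 4. The shares were 0.00431%, 0.00481%, 0.00393% and 0.00375% in ΔAgo2 tumors 1 to 4. Wild-type tumors 1 and 3 lay below every ΔAgo2 tumor, and the means of 0.00692% ± 0.00496 and 0.0042% ± 0.000468 had a difference that did not pass the exact permutation test (SD, n = 4, p = 0.429). Without wild-type tumors 2 and 4 the difference turned to 0.00105 percentage points higher in ΔAgo2 (exact permutation p = 0.133). That test had fewer than 70 assignments, so its lowest possible p was above 0.0286.

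Of these 3519 RNAs, 601 had counts and 48 could be tested. None passed the edgeR test, against 3.49% of all genes, while 5 of 48 had an unadjusted p under 0.05, 2 passed with DESeq2 and 4 with voom. Over all genes these shares were 26.7%, 14.3% and 27.9%, and those of the structured RNAs were lower. Their median log2 fold change was −0.15 beside 0.04 for all genes. The 6 with the highest mean CPM were Gm22513, Snord104, Snora73b, Scarna2, Gm22009 and Gm23201. Gm22513, annotated as a small nuclear RNA, was at 1.611, 15.2, 0.7353 and 51.43 CPM in wild-type and 3.322, 0.2455, 0.7458 and 0.5563 CPM in ΔAgo2 tumors 1 to 4 (log2 fold change −3.82 ± 1.26 SE, edgeR adjusted p = 0.101). Its range among wild-type tumors was 69.9-fold, and that of Scarna2 41.8-fold, both wider than the 24.2-fold of Bc1. Snord104, Snora73b and Scarna2 guide RNA modification or take part in RNA processing. They were also highest in wild-type tumor 4, at 9.885, 10.89 and 7.02 CPM. Gm22009 was highest in ΔAgo2 tumor 1 at 4.245 CPM and Gm23201 in ΔAgo2 tumor 2 at 1.911 CPM.

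Messages of the histone clusters, most of which end in a stem-loop in place of a poly(A) tail, gave a further reading. Their 70 genes took 0.0205%, 0.0278%, 0.0213% and 0.0517% of counts in wild-type tumors 1 to 4. In ΔAgo2 tumors 1 to 4 they took 0.0302%, 0.0195%, 0.0201% and 0.0268%. Wild-type tumor 4 was highest, the groups overlapped, and the difference did not pass the exact permutation test (p = 0.571). The histone range of the wild-type tumors was far below that of Bc1.

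**Figure D4:**
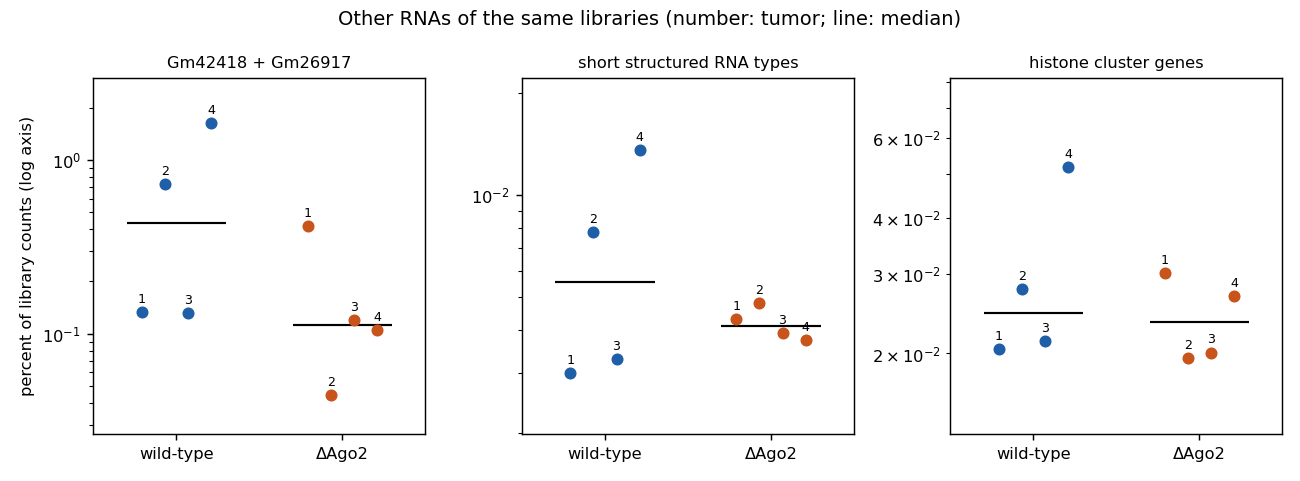
Percent of library counts in Gm42418 plus Gm26917, in short structured RNA types without the members, and in histone cluster genes in each tumor, on log axes with the group median as a line and the tumor number above each point. Wild-type tumor 4 is highest in each panel, and the genotypes overlap in all 3.

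The genes whose log2 levels correlated most with Bc1 over the 8 libraries were protein-coding genes. Of 13072 tested genes with a mean of at least 1 CPM, Apeh, Rabggta, Tmem115, Hoxb6 and Hes7 had the highest Pearson correlations of log2 CPM with Bc1, from 0.994 to 0.997. Rn7sk came at rank 386 with 0.956. Correlation does not compare the size of changes. Apeh ran from 54.57 to 139.7 CPM, Hes7 from 0.7979 to 11.6 CPM and Rn7sk from 0.868 to 142.7 CPM, against 28.03 to 3259 CPM for Bc1. After the genotype means were subtracted, the closest were Enkd1, Slc25a28, Dgat1, 1700003E16Rik and Tmem115, at 0.994 to 0.997, and Rn7sk came at rank 358 with 0.946. Transcripts of these genes had GC contents of 53.5% to 60.5%, above the median of 49.9% over the genes ranked and the 40.5% of Bc1. These points share library, depth and base composition, and the correlations are descriptions.

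Proteins that bind these RNAs or make them were counted in 7 lists. Of their 83 genes, 79 were tested and 0 passed the edgeR test, against 3.49% of all genes. Their median log2 fold change was 0.14 beside 0.04 for all genes, 14 of 79 had an unadjusted p under 0.05, and 8 passed with DESeq2 and 17 with voom. These shares lay below the 26.7%, 14.3% and 27.9% of all genes. Of the BC1-binding proteins 0 of 9 passed and 3 had an unadjusted p under 0.05, a count too small to set apart from the 26.7% of all genes. Ssb, the La protein that binds the ends of RNA polymerase III transcripts, averaged 99.81 ± 23.4 CPM in wild-type and 174.0 ± 19.8 CPM in ΔAgo2 tumors (SD, n = 4, log2 fold change 0.80, edgeR adjusted p = 0.0639). Its 4 ΔAgo2 values lay above all wild-type values, as in 8.05% of all genes. Fmr1, which represses translation, averaged 11.8 ± 1.61 and 39.17 ± 27.7 CPM (log2 fold change 1.73, adjusted p = 0.0665).

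The 7SK particle had 0 of 7 genes past the test and 3 at an unadjusted p under 0.05. Hexim1, which inhibits P-TEFb when bound to 7SK, was at 71.37 to 83.19 CPM in wild-type and 52.77 to 61.19 CPM in ΔAgo2 tumors (log2 fold change −0.48, edgeR adjusted p = 0.111). Ccnt1, the cyclin of that kinase, was at 16.47 to 31.83 CPM in wild-type and 32.61 to 67.67 CPM in ΔAgo2 tumors (log2 fold change 0.91, adjusted p = 0.103). In both genes the groups did not overlap, as in 8.36% of all genes for lower and 8.05% for higher ΔAgo2 values. With 7 genes, the 3 at an unadjusted p under 0.05 cannot be set apart from the 26.7% of all genes.

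Of the 27 genes of the RNA polymerase III machinery, which makes BC1 and 7SK, 0 passed and 6 had an unadjusted p under 0.05, with a median log2 fold change of −0.01. Polr3g, a subunit of the enzyme, averaged 12.89 ± 6.5 CPM in wild-type and 31.5 ± 6.03 CPM in ΔAgo2 tumors (SD, n = 4, log2 fold change 1.27, edgeR adjusted p = 0.068). Bdp1, a subunit of its initiation factor TFIIIB, averaged 9.194 ± 3.64 and 28.98 ± 17.9 CPM (log2 fold change 1.64, adjusted p = 0.0758). For both genes all ΔAgo2 values lay above all wild-type values, as in 8.05% of all genes. In the other direction, Gtf3c1, a subunit of TFIIIC, was named after its values were seen. It was at 109.7, 156.0, 98.6 and 149.1 CPM in wild-type tumors and at 69.31 to 93.21 CPM in ΔAgo2 tumors (log2 fold change −0.60, edgeR adjusted p = 0.112). Its groups did not overlap, as in 8.36% of all genes for lower ΔAgo2 values. The share of this list at an unadjusted p under 0.05 was below the 26.7% of all genes.

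The other lists held no gene past the test, and the share with an unadjusted p under 0.05 stayed below the 26.7% of all genes. Among the RNase P and RNase MRP proteins 1 of 10 did, led by Rpp30 (log2 fold change 0.75, edgeR adjusted p = 0.133) and Rpp38 (0.71, adjusted p = 0.191). Among 9 tested genes of the signal recognition particle and its receptor 0 did, with Srp14 (0.62, adjusted p = 0.2) and Srp68 (−0.29, adjusted p = 0.273) first. Among 7 telomerase genes 0 did, with Nop10 (0.77, adjusted p = 0.195) and Tert, the catalytic subunit (0.87, adjusted p = 0.297), first. Among 10 paraspeckle and MALAT1 partners 1 did, led by Tardbp (0.59, adjusted p = 0.135) and Nudt21 (0.45, adjusted p = 0.21).

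Markers of cells known to contain BC1 were read beside it, since in whole tumors fewer cells of a type and less RNA per cell cannot be told apart. The wild-type sums of the 15 neuron markers were 75.07, 96.58, 72.06 and 95.84 CPM for tumors 1 to 4, and the ΔAgo2 sums were 48.68, 49.68, 50.63 and 40.6 CPM. All wild-type sums lay above all ΔAgo2 sums, with tumors 2 and 4 highest, over a far narrower range than the 24.2-fold of Bc1. Syn1, which did not pass (edgeR adjusted p = 0.111), made the largest part, averaging 44.05 CPM in wild-type and 27.89 CPM in ΔAgo2 tumors. Of 11 neuron markers tested, 4 fell and 0 rose by the edgeR test, which 3.49% of all genes passed: Nefm and Nefl, subunits of neurofilaments, Gap43 of growing axons and Prph, a filament protein of peripheral nerve. These were named after their values were seen. Their order among wild-type tumors differed: Nefm was highest in tumors 4 and 2, Nefl and Prph in tumors 4 and 3, and Gap43 was lowest in tumors 2 and 4. Nefm averaged 2.963 ± 0.613 CPM in wild-type and 0.2142 ± 0.0586 CPM in ΔAgo2 tumors (SD, n = 4, log2 fold change −3.80, adjusted p = 0.00213). Map2, a dendritic microtubule protein, was at 0 to 0.5806 CPM in wild-type and 0.7587 to 1.697 CPM in ΔAgo2 tumors. It was higher in all 4, as in 8.05% of all genes, and did not pass (log2 fold change 1.84, edgeR adjusted p = 0.0876). Elavl4, a defining neuronal marker, had 0 counts in all libraries. The 5 germ cell markers summed to at most 0.1845 CPM, and Tex101 among them had 0 counts. Schwann cell markers summed to 109.7 to 143.3 CPM in wild-type and 133.2 to 153.1 CPM in ΔAgo2 tumors. The part of nerve tissue in the Bc1 difference was not tested.

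Across all settings tried, the log2 fold change of Bc1 was negative, from −5.44 with a correction for gene GC content to −1.29 without wild-type tumors 2 and 4. Bc1 was chosen by this contrast, so its sign is no sign of stability. Scaling and count filters moved it between −4.38 and −4.20. Leaving out 1 tumor gave −4.69 to −2.85, and the weakest of these was without wild-type tumor 4.

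**Figure D5:**
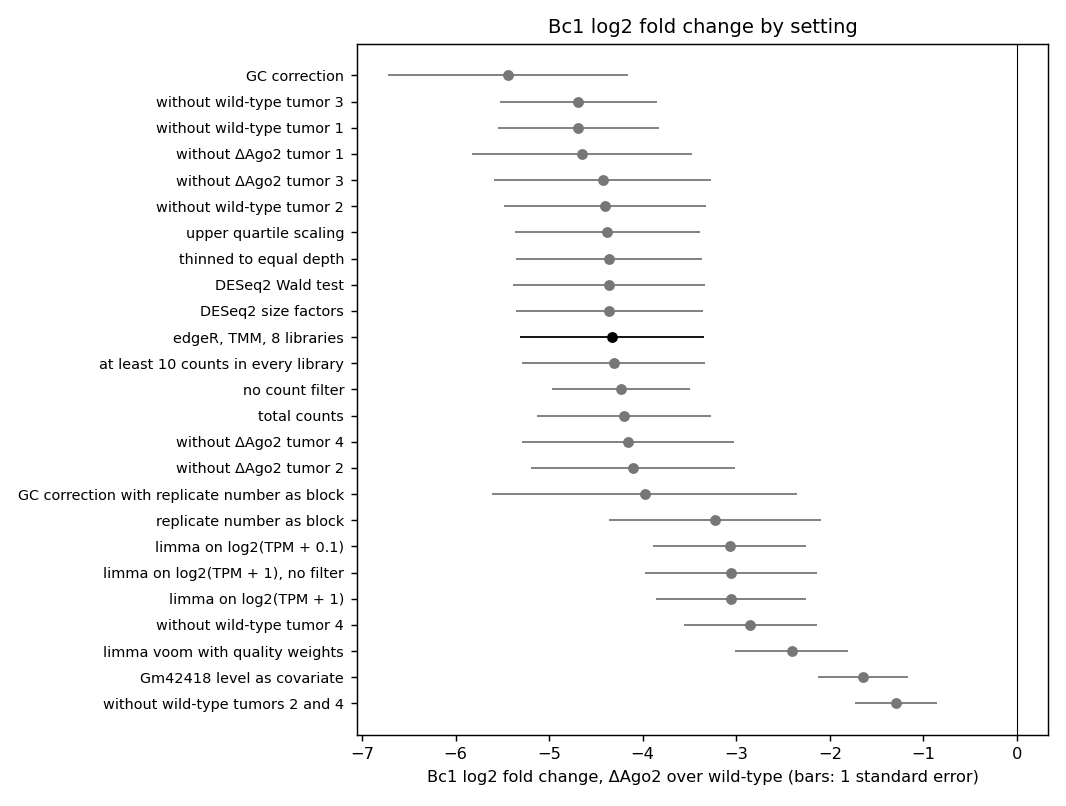
Log2 fold change of Bc1, ΔAgo2 over wild-type, under each setting, as points with bars of 1 standard error and the edgeR fit of all 8 libraries in black. The smallest differences, −1.65 and −1.29, were with the Gm42418 level as a covariate and without wild-type tumors 2 and 4.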

How the data were processed

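The authors deposited gene counts, whole numbers with no normalization, and TPM values scaled by gene length, for 8 tumor libraries. Per the labels, RNA was extracted with TRIzol and libraries were made with a stranded mRNA kit. The methods passage, written for cultured cells, gives alignment to a ribosomal RNA database, then mm10, and featureCounts. The submitters' processing notes name STAR with no role. Annotation release, strand setting and handling of reads with several matches are not given in the sources used here. Identifiers were matched to GENCODE M21 on GRCm38 (99.29% with version).

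Counts were analysed with edgeR 4.0.16 in R 4.3.3 (filterByExpr, TMM, quasi-likelihood test, Benjamini-Hochberg over 16061 genes, threshold 0.05), and log2 CPM used a prior count of 2. Shares were compared by exact two-sided permutation, over 70 assignments with all 8 libraries and over fewer where tumors were left out. Copies were searched with blastn 2.17.0. The fit was tested on simulated data. Alternatives were other scalings, filters and tools (DESeq2 1.42.0, limma 3.58.1), thinning, a GC offset, a replicate block, TPM on a log2(TPM + 1) or log2(TPM + 0.1) scale, and leaving out tumors. The TPM fits kept genes that reached 0.5 TPM in 4 or more libraries, and fold changes on that scale understate low genes.

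The members, gene lists and tests were chosen with earlier results of these data known. Genes named were the members, the 2 of each list with the smallest p or any past the threshold, the 6 highest other structured RNAs, the 5 genes most like Bc1 in each of 2 readings, ribosomal remnants and Ago2. Each tumor is labelled a biological replicate. Depth was 7903288 to 268564145 counts per library, so low genes are least precise in wild-type tumor 4. Cell culture data were not analysed here.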

Additional observations from a re-analysis of the deposited data

Results flagged for a closer look

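In the groups of 4 tumors, 2 of 22 group readings had 1 tumor further from the others, as a share of the group range, than Dixon's test allows, where chance gives about 1.1. The ratio of Bc1 to Rn7sk counts was lowest in wild-type tumor 2, at 20.31, while the other 3 wild-type tumors lay between 22.43 and 22.84. The gap was 0.837 of the range, but in size it is small beside the ΔAgo2 range of 6.31 to 32.3. Gm42418, the 18S-related locus, was highest in ΔAgo2 tumor 1, at 3953 CPM, while the other 3 ΔAgo2 tumors lay between 352.1 and 929.5 CPM, a gap of 0.84 of the range. That tumor also had the highest Bc1 and Rn7sk levels of its group, 89.08 and 14.11 CPM, and the lowest Bc1 counts per count of both references.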

How the results depend on the processing

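The number of genes called was 560 with edgeR, 2292 with DESeq2, 4476 with voom, 983 without a count filter, 153 on log2(TPM + 1), 107 on log2(TPM + 0.1), 77 on log2(TPM + 1) without a filter, 315 with the GC correction and replicate block together, and 100 without wild-type tumors 2 and 4. Leaving out 1 tumor gave 88 to 1793: 143 without wild-type tumor 2, 934 without wild-type 3, 265 without wild-type 4, 1793 without ΔAgo2 1, 166 without ΔAgo2 2, 88 without ΔAgo2 4, and between 143 and 166 without ΔAgo2 3. Of the 3 other members tested, 1 passed with DESeq2, voom and no filter and 0 otherwise. Of the partner genes, 8 passed with DESeq2, 17 with voom, 4 with no filter and 1 with the GC correction, and 0 to 9 on leaving out 1 tumor (3 without wild-type 3, 9 without ΔAgo2 1). Of the other structured RNAs, 2 passed with DESeq2, 4 with voom, 4 with no filter, and 5, 4 and 2 on the 3 TPM settings, and 0 to 3 on leaving out 1 tumor (1 without wild-type 1, 3 without wild-type 3). Over all genes, the TPM settings called 153 of 15410, 107 of 15410 and 77 of 30111. How many structured RNAs were tested on the TPM settings is not given here, so those counts cannot be set against these shares.

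Bc1 had a log2 fold change of −2.41 with voom, −1.65 with the Gm42418 covariate and −1.29 without wild-type tumors 2 and 4, and −4.69 to −2.85 on leaving out 1 tumor. Its log2 ratio differed by −0.56 against Rn7sk alone and also without Malat1 and Neat1, by −1.59 against Gm42418 and Gm26917, by −1.67 without wild-type tumors 2 and 4, and by −3.84 to −2.48 on leaving out 1 tumor. Rmrp and Rpph1 could give no ratio, having 0 counts in most libraries. Rn7sk, at −3.20, was −1.82 without wild-type 4 and −4.33 without ΔAgo2 1.

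Signs turned for Neat1 (0.17 with voom, 0.05, 0.04 and 0.05 on TPM, −0.33 to 0.08 on leaving out 1 tumor, above 0 without wild-type 4 or ΔAgo2 1, 0.28 without wild-type 2 and 4), Malat1 (−0.34 with GC correction, −0.40 with GC correction and block), Gm42418 (0.56) and Gm26917 (0.08) without wild-type 2 and 4. The histone share turned to 0.000917 percentage points higher in ΔAgo2 without wild-type 4 and 0.00322 without wild-type 2 and 4, from a range of −0.00946 to 0.000917 on leaving out 1 tumor. The structured RNA share turned to 0.00105 without wild-type 2 and 4, and ran from −0.00403 to −0.000498 on leaving out 1. The causes were not tested.

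The labels number the tumors 1 to 4 in both groups, and deviations of same-numbered tumors correlated at −0.236, 0.103, −0.045 and −0.29. These values show no pairing by number, but cannot tell whether same-numbered tumors were handled together. With the replicate block 70 genes were called and the Bc1 log2 fold change was −3.23. Settings with wild-type 2 and 4 left out, the Gm42418 covariate and that ratio were chosen after seeing the data. Depth limits the RNAs with few counts most in wild-type tumor 4.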

Other observations

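Markers of muscle, skin and blood varied widely between tumors, in another order than Bc1. The 10 skeletal muscle markers summed to 277.3, 369.8, 3948 and 542.2 CPM in wild-type tumors 1 to 4 and to 212.8, 52.69, 229.5 and 178.7 CPM in ΔAgo2 tumors 1 to 4. Wild-type tumor 3 was highest, where Bc1 was at 141.4 CPM, and all ΔAgo2 sums lay below all wild-type sums. Of these 10 genes 0 passed the edgeR test, against 3.49% of all genes, and 10 had an unadjusted p under 0.05, against 26.7% of all genes. The 10 keratinocyte markers summed to 665.5, 724.2, 16.49 and 203.6 CPM in wild-type and to 614.8, 560.2, 1081 and 1078 CPM in ΔAgo2 tumors, and 1 of 10, Krt10, rose. Leukocyte markers summed to 694.9 to 1062 CPM in wild-type and 642.6 to 1104 CPM in ΔAgo2 tumors, and 0 of 6 passed, with 1 at an unadjusted p under 0.05. Red cell markers summed to 54.41 to 203.1 and 39.03 to 148.4 CPM, and 0 of 5 passed, also at an unadjusted p under 0.05. The part of these cells in the Bc1 difference was not tested.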
